A study of Mus musculus with 32 samples.

Results

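The Rab GTPases of mouse gastrocnemius, with Rab6a among them, were described across both genotypes and 4 Zeitgeber times (ZT, hours from lights on). Members were the genes whose symbol is Rab followed by a number and at most 1 letter, and whose level reached 1 FPKM in at least 4 of 32 libraries. FPKM is the number of sequenced fragments scaled to transcript length and to all mapped fragments of its library. Of 57 such Rab genes in the table, 43 met the rule, out of 11975 genes of the whole table that met the same level. The members were thus chosen by their FPKM in these libraries, and Rab6a was picked out on its difference between genotypes in them. That difference is therefore given as a description and supports nothing further.

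The mutants were Sf1-Cre; Sirt1loxP/loxP mice. This Cre line is used to delete floxed genes, here Sirt1, which encodes an NAD-dependent deacetylase, in neurons of the ventromedial hypothalamus. The labels call the other mice controls, and the series description gives them floxed Sirt1 (Sirt1loxP/loxP) and no Cre, so Cre and deletion cannot be told apart. All mice were 10 weeks old and of mixed genetic background, and muscle was taken at ZT0, ZT6, ZT12 and ZT18 from 4 mice of each genotype. The comparison asks whether muscle RNA over the day differs between these mutants and controls. The muscle data used here do not show in which cells Sirt1 was deleted.

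Rab proteins are small GTPases that mark membranes and steer vesicles between them. Exchange factors (GEFs) load them with GTP and place them on a membrane, GTPase-activating proteins (GAPs) switch them off, and GDP dissociation inhibitors (GDIs) carry the inactive, prenylated form through the cytosol. Rab6a acts at the Golgi and in transport from the Golgi towards the plasma membrane and the endoplasmic reticulum (ER). In muscle the family is best known for the vesicles that bring the glucose transporter GLUT4 to the surface, where Rab8a, Rab10 and Rab13 are controlled by the GAPs Tbc1d1 and Tbc1d4.

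Promoter windows from 250 bases before to 50 after the RefSeq start (build GRCm38.p6) were matched for 38 of the 43 members. In them 6 motifs were searched on both strands. CLEAR, the element bound by TFEB-type regulators of lysosomal genes, was searched as the 10 bases in capitals below and was present in 3 members (7.89%) and in 0.37% of 27024 genes with such windows. These were Rab5a of early endosomes, Rab21 of early endosomes and Rab24 of autophagosomes. CACGTG, the E-box, which CLEAR contains, was present in 6 members (15.8%, against 8.09% of all genes). TTATGTAA or TTACGTAA, the D-box, occurred in Rab29 only, and TGACGTCA, the cyclic AMP response element, in Rab5a only (2.63% of members each, against 1.23% and 2.03% of all genes). The ROR element (0.514% of all genes) and the NRF1 motif (1.07%) were in none of the windows of the 38 members. The 27024 genes were not limited to those that met the level rule, while the members were. These shares therefore compare unlike sets, and shares over the 11975 genes at that level are not given. Stretches of 150 bases before the start are shown for Rab6a, because the results turn on it and its window holds none of the 6 motifs, and for the 3 members with CLEAR, whose letters are in capitals. The Rab24 stretch runs 12 bases past the start, since its motif lies there. They lie at chr7:100607436-100607585 (plus strand), chr17:53479084-53479233 (plus), chr10:115315592-115315741 (minus) and chr13:55321969-55322130 (minus).
Rab6a: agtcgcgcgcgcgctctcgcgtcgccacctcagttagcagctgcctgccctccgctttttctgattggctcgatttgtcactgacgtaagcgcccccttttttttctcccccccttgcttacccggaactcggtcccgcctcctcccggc
Rab5a: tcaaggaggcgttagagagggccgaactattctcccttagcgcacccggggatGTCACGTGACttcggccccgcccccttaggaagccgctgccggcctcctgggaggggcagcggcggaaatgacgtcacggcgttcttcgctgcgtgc
Rab21: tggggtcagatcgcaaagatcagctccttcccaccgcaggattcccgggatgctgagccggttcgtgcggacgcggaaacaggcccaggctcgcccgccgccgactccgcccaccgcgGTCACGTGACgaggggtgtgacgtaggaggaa
Rab24: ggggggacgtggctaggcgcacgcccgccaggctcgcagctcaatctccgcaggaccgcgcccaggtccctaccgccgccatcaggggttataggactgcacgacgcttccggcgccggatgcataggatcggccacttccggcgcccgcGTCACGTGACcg
A match describes letters only. No binding was measured. Over the 32 libraries the Pearson r with Rab6a was -0.34 for Rab5a, 0.014 for Rab24 and 0.61 for Rab21.

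The family was broadly present in this muscle. Of the 43 genes, 37 were at or above 1 FPKM in every library, and 41 had a mean of at least 1 FPKM in each of the 8 groups. Levels ran over a 134-fold range of means, with a median of 15.0 FPKM, against 7.19 FPKM over all genes tested. A mean over 100 FPKM was reached by 3 members, 19 lay between 10 and 100, 15 between 2 and 10, and 6 under 2. The 3 highest were Rab12 (162 ± 19.6, SD, n = 32), a Rab of recycling and autophagy, Rab10 (143 ± 21.3) and Rab7 (141 ± 13.9), the central Rab of late endosomes and lysosomes. Together they held 36.4% of the summed FPKM of the family. Rab10 and Rab7 did not differ in level beyond their spread. Next came Rab2a (99.6 ± 14.1) and Rab1b (70.9 ± 13.6), both of transport between ER and Golgi.

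**Figure D1:**
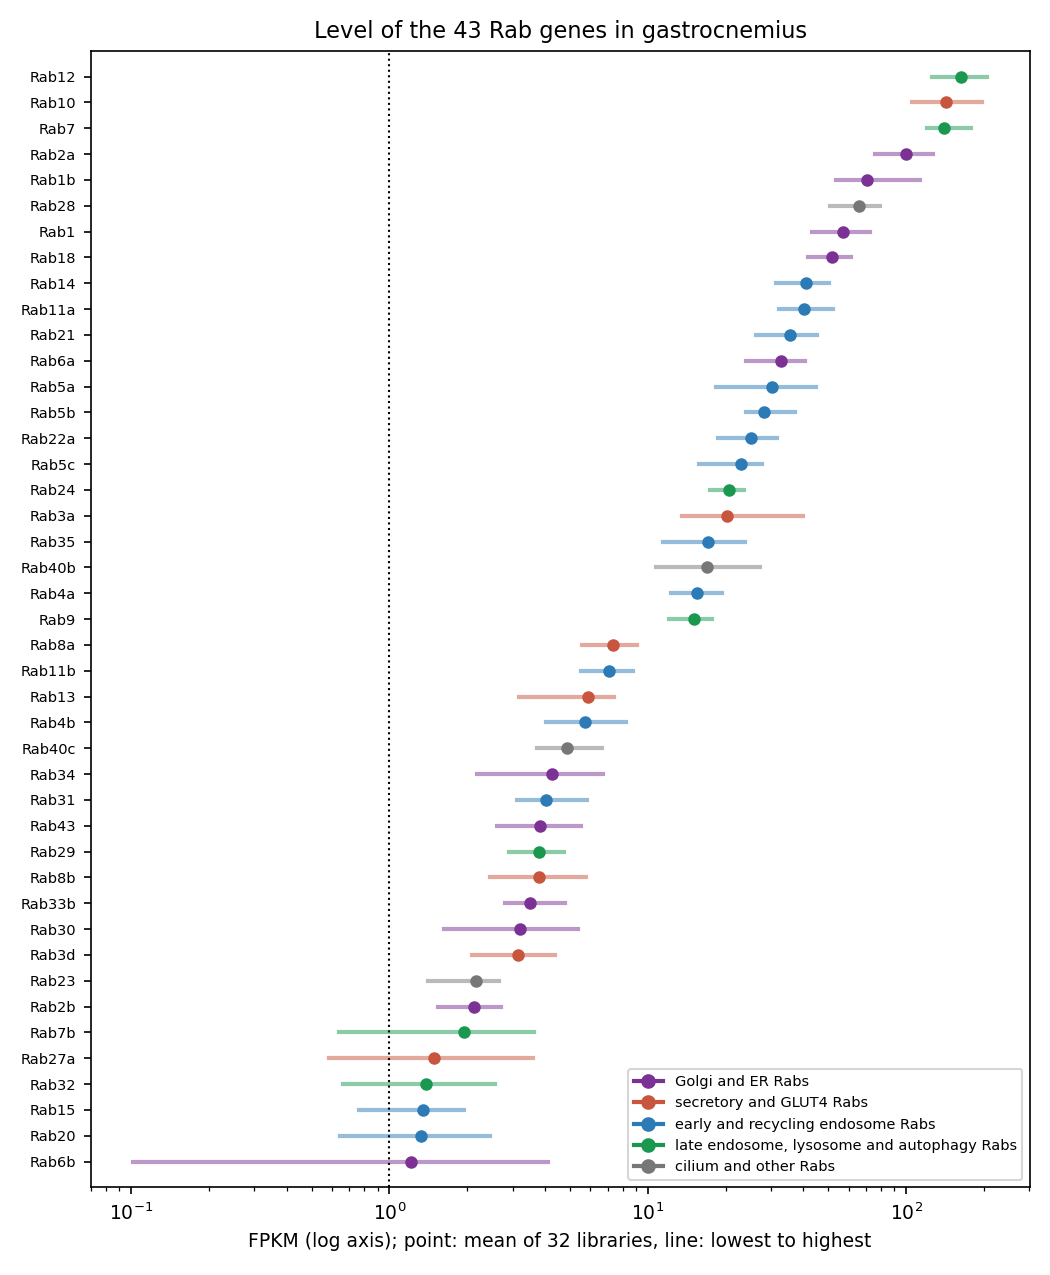
Mean FPKM (point, log axis) and lowest to highest of 32 libraries (line) of the 43 Rab genes, coloured by the compartment they are known for; the dotted line is 1 FPKM. Rab12, Rab10 and Rab7 lie above 100 FPKM, and the line of Rab6b, the lowest gene, is the longest.

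By compartment, the Golgi and ER group had 11 members with means from 1.22 (Rab6b) to 99.6 FPKM (Rab2a). The secretory and GLUT4 group had 7, from 1.49 (Rab27a, of secretory granules) to 143 FPKM (Rab10). Of the other Rabs assigned to GLUT4 vesicles, Rab8a averaged 7.34 ± 0.808 and Rab13 5.86 ± 1.003 FPKM (SD, n = 32), both below every library of Rab10 on this length-scaled measure. The 14 members of early and recycling endosomes lay between 1.32 (Rab20) and 41.1 FPKM (Rab14). The 7 of late endosomes, lysosomes and autophagy lay between 1.39 (Rab32) and 162 FPKM (Rab12), and the 4 of cilium and other roles between 2.16 (Rab23) and 65.9 FPKM (Rab28).

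The members closest to the level rule were Rab6b (1.22 FPKM; 11 libraries at 1 FPKM or more), Rab20 (1.32; 26 libraries), Rab15 (1.35; 28), Rab32 (1.39; 26), Rab27a (1.49; 22) and Rab7b (1.94; 31). Among the 14 genes outside it, the highest were Rab27b (mean 0.704, 3 libraries at 1 FPKM or more), Rab37 (0.400, none), Rab42 (0.350, 1 library) and Rab39 (0.346, none). The highest single values of Rab38, Rab19 and Rab44 were 0.5999, 0.935 and 0.561 FPKM, and the remaining 7 stayed under 0.5 FPKM in every library. A group that passed such a rule is by construction above it, so these levels describe the choice.

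Most members varied little between libraries. In 25 of 43 the highest library was less than 2 times the lowest, and the median ratio among the 22 members over 10 FPKM was 1.67. Depth is given only relative to the other libraries, read from the steps of low values in 850 genes: it ran from 0.815 to 1.39, with 58.2% of values within 0.1 of a whole multiple against 20% without steps, and absolute depth is unknown. All 12 fibre markers were present in every library. Their ranges differed, with Tnnt3 at 569 to 33494 FPKM and Tnni2 at 6913 to 27981, but Ckm at 15672 to 22140. A sum over them follows such wide ones, so a low sum need not mean that each marker is low. Summed FPKM of these fibre markers ran from 53167 to 115290, and the 2 lowest libraries, mutant ZT12 library 1 (53167) and mutant ZT0 library 2 (56882), stand apart from the other 30, which were at 71675 or more. Mutant ZT0 library 2 also had the lowest weight in limma's array weights (0.173). Summed lymphocyte markers ran from 4.35 to 103 FPKM, and the B and T cell markers Cd79b, Ms4a1, Cd79a and Cd3d were each at 0 in some library. The epithelial list summed to at most 1.58 FPKM.

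Over all times, no Rab gene passed the threshold between genotypes (limma, adjusted p under 0.05, 0.0251% of all genes called). At an unadjusted p under 0.05 there were 3 members (6.98%, against 6.48% of all genes), which is a share near the background. Rab24 averaged 21.3 ± 1.51 FPKM among controls and 20.1 ± 1.68 among mutants (SD over 16 libraries), a log2 difference of -0.08 (SE 0.034, adjusted p = 0.756). Rab40b, which belongs to a subfamily of cullin ligase adaptors, was 15.7 ± 2.74 in controls and 18.0 ± 3.49 in mutants (log2 difference 0.18, SE 0.080, adjusted p = 0.756). Rab3d, of secretory granules, was 2.95 ± 0.503 and 3.35 ± 0.651 (log2 difference 0.14, SE 0.066, adjusted p = 0.756). The ranges overlapped in each of the 3. The unadjusted 3 were 2 higher (4.65%, against 3.32%) and 1 lower (2.33%, against 3.16%). A higher mean in mutants was found in 24 of 43 members (55.8%, against 51.3% of all genes) and a lower one in 19 (44.2%, against 48.7%), and the median log2 difference was 0.011 against 0.0023 over all genes.

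Rab6a (XLOC_018947, chr7:100549116-100641268 in the file) held a mean of 32.8 ± 4.53 FPKM (SD, n = 32) with 32.2 ± 4.05 for the 16 control and 33.3 ± 5.02 for the 16 mutant libraries. The promoter stretch printed above, which ends at the RefSeq start, lies inside this span, so the span reaches upstream of that start, and whether other sequence there adds to the FPKM was not tested. At ZT12 the controls had 26.97, 26.40, 26.65 and 26.54 FPKM, and the mutants 38.33, 39.21, 39.56 and 34.98. All mutant libraries were above all control libraries, and the controls lay close together (SD 0.241). The log2 difference was 0.50 (SE 0.104, adjusted p = 0.0549 in limma over all genes) and so not called. It passed without mutant ZT0 library 2 (adjusted p = 0.0142) or 3 (0.00792), or mutant ZT12 library 3 (0.0169), and was at 0.261 with only the ZT12 groups in the limma fit. At ZT6 the order was the other way round. Controls had 34.84, 40.13, 35.05 and 34.87 FPKM, and mutants 33.97, 30.34, 25.03 and 26.83, again with no overlap (log2 difference -0.32, SE 0.104, adjusted p = 0.471). At ZT0 the mutants ran from 24.04 to 40.66 around the controls at 30.87 to 33.85, and at ZT18 both groups lay between 29.82 and 36.14. The control mean was thus 36.2 at ZT6 and 26.6 at ZT12, and the mutant mean 29.0 and 38.0 FPKM. The test of a genotype difference that depends on time gave an adjusted p of 0.196 for Rab6a (limma; unadjusted p = 0.000102), and the difference of the 24 h rhythm 0.880.

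**Figure D2:**
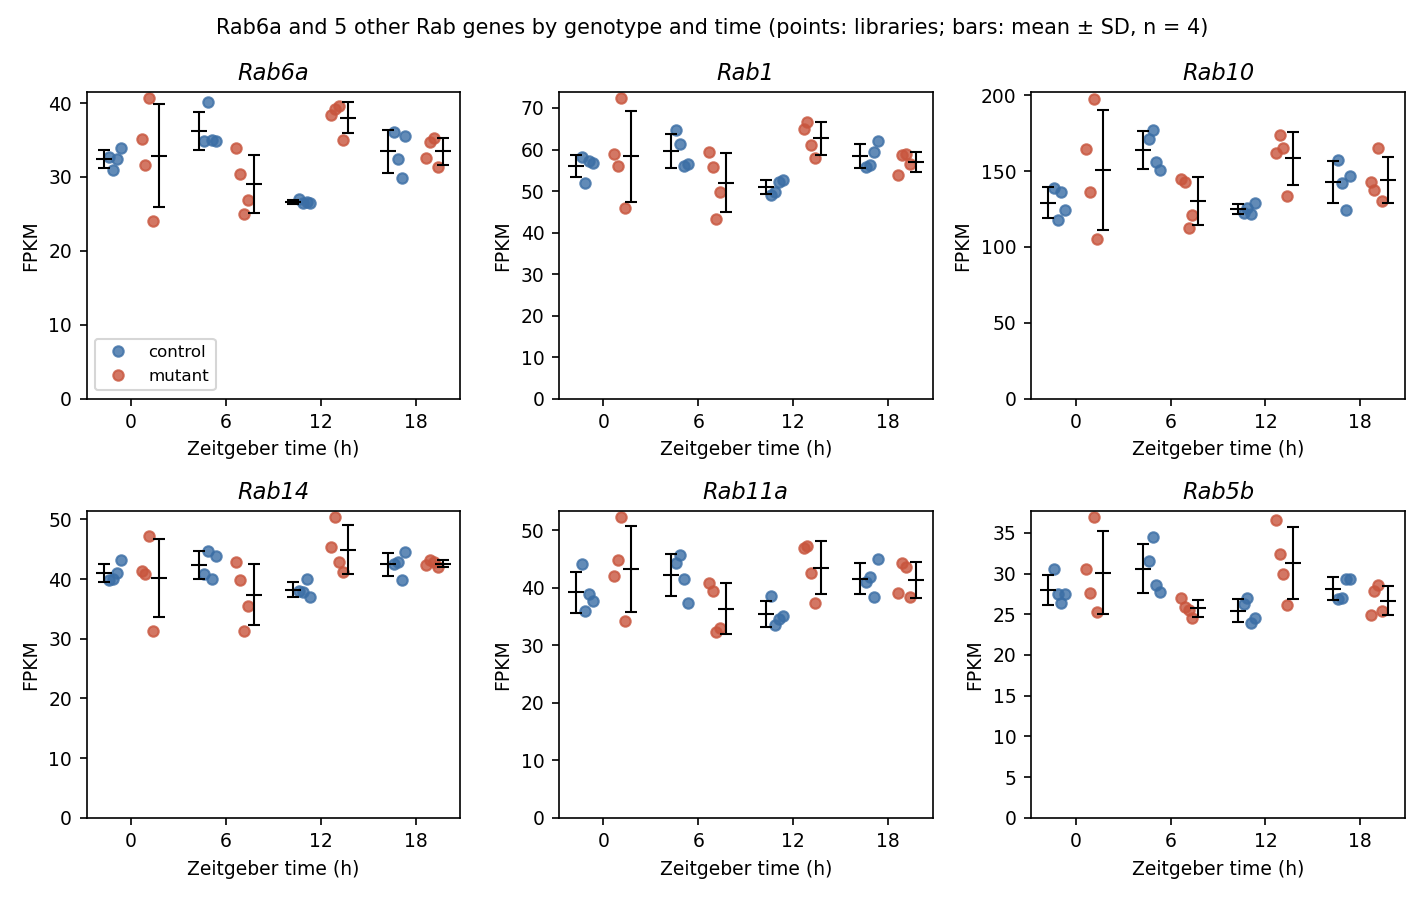
FPKM of Rab6a and of 5 other Rab genes in each library (points) with mean ± SD (n = 4) by Zeitgeber time, controls in blue and mutants in red. At ZT12 the mutants of Rab6a, Rab1, Rab10 and Rab14 lie above all controls, and at ZT6 those of Rab6a, Rab10 and Rab5b lie below all controls.

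At ZT12 no member passed the threshold (limma, 0.0251% of all genes called), but 14 members had an unadjusted p under 0.05 (32.6%, against 17.4% of all genes). Of these 13 were higher in mutants (30.2%, against 12.8% of all genes) and 1, Rab30 of the Golgi, was lower (2.33%, against 4.57%). Rab6a, picked out on its difference, is among the 13. A higher mean was found in 29 members (67.4%, against 63.6%) and a lower one in 14 (32.6%, against 36.4%). After quantile normalisation the counts were 9 higher and 2 lower, and leaving out 1 library gave 7 to 14 higher and 0 to 2 lower, with 7 higher without mutant ZT12 library 1. The Golgi and ER group, which holds Rab6a, had 6 of the 14 and a median log2 difference of 0.22 over its 11 members, 8 of them higher. The secretory and GLUT4 group had 2 of the 14 and a median of 0.23, with 5 of 7 higher, and the early and recycling endosome group had 4 and a median of 0.12, with 11 of 14 higher. In the late endosome group 3 of 7 were higher (median -0.02). These shares stand beside 63.6% higher over all genes and describe no compartment. Of the 22 members over 10 FPKM, 10 had an unadjusted p under 0.05 at ZT12, against 22.7% of all genes of that level. Of the 21 members up to 10 FPKM there were 4, against 13.8%. Rab1, of ER to Golgi transport, had 49.1, 49.8, 52.1 and 52.6 FPKM in controls and 65.0, 66.7, 61.0 and 58.0 in mutants, with no overlap (log2 difference 0.29, SE 0.097, adjusted p = 0.158). Rab2a was 86.8, 100.5, 92.9 and 79.1 in controls and 122, 122, 127 and 98.0 in mutants. Only the lowest mutant library lay within the control range (log2 difference 0.38, SE 0.123, adjusted p = 0.157). Rab1b was 66.1, 62.8, 62.2 and 62.4 in controls and 106, 108, 70.1 and 63.3 in mutants. The mutants thus had 2 high libraries and 2 near the controls (log2 difference 0.41, SE 0.149, adjusted p = 0.190). Rab30 had 2.65, 2.71, 3.44 and 3.24 in controls and 1.63, 2.12, 2.61 and 2.67 in mutants, which overlapped by 1 library (log2 difference -0.31, SE 0.142, adjusted p = 0.264).

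Among Rabs of endosomes and GLUT4 vesicles, Rab10 had 122, 126, 122 and 129 FPKM in controls and 162, 174, 165 and 133 in mutants, without overlap (log2 difference 0.34, SE 0.130, adjusted p = 0.202). Rab14, a Rab between Golgi and endosomes (chr2:35180204-35201120, within 5 Mb of Nr6a1, a gene called between genotypes over all times), had 38.0, 37.8, 40.0 and 37.0 in controls and 45.3, 50.4, 42.9 and 41.1 in mutants, without overlap (log2 difference 0.23, SE 0.092, adjusted p = 0.215). Over all times Rab14 was 41.0 ± 2.38 in controls and 41.3 ± 5.05 FPKM in mutants. Rab11a, of recycling endosomes, had 38.6, 33.5, 34.5 and 35.2 in controls and 46.9, 47.2, 42.5 and 37.3 in mutants, where the lowest mutant overlapped (adjusted p = 0.190). Rab5b, of early endosomes, had a log2 difference of 0.28 (SE 0.096, adjusted p = 0.171) and overlapping groups. In total 6 members were higher in mutants without overlap (14%, against 5.67% of all genes): Rab6a, Rab1, Rab10, Rab14, Rab32 and Rab35. None was lower without overlap (1.73% of all genes). Rab6a was picked out on its difference and is in the count of 6, and no count without it was made. Over the 32 libraries Rab1, Rab10, Rab14 and Rab35 had a Pearson r of 0.75 to 0.88 with Rab6a, and Rab32 had 0.21. Rab32, of lysosome-related organelles, had 0.922, 1.08, 0.939 and 1.48 in controls and 1.497, 2.27, 1.71 and 1.66 in mutants, close to the lower edge of the level rule (adjusted p = 0.225). Rab35, of recycling endosomes, had 13.6, 16.5, 15.3 and 16.4 in controls and 19.8, 23.5, 16.9 and 18.0 in mutants (log2 difference 0.31, SE 0.137, adjusted p = 0.245). The high mutant libraries of these genes are the same 4 mice as for Rab6a, so the members do not count as separate observations. Rab40b had 16.99, 14.8, 15.3 and 10.8 in controls and 16.1, 19.5, 27.1 and 17.1 in mutants, with overlap (log2 difference 0.43, SE 0.160, adjusted p = 0.195). The most abundant late endosomal members stayed near 0, with a log2 difference of -0.05 for Rab12 (SE 0.121, adjusted p = 0.860) and -0.03 for Rab7 (SE 0.092, adjusted p = 0.901).

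At ZT6 most of the abundant members had a lower mean in mutants, as most genes of their level did. No member passed the threshold (limma, 0.0167% of all genes called), and 7 had an unadjusted p under 0.05 (16.3%, against 10.4% of all genes), 6 of them lower (14%, against 6.8%) and 1, Rab7b, higher (2.33%, against 3.59%). Over all 43, 17 had a higher mean (39.5%, against 42.5%) and 26 a lower one (60.5%, against 57.5%). With quantile normalisation 2 were lower and 0 higher, and leaving out 1 library gave 3 to 11 lower. The count was 3 without control library 1 or mutant library 3 of ZT6, and 4 without control library 0 or mutant library 2 of ZT6. It was 10 without mutant ZT6 library 0, mutant ZT0 library 2 or 3, or mutant ZT12 library 1, and 11 without control ZT6 library 3. Among the 22 members with a mean over 10 FPKM, 20 had a lower mean in mutants (median log2 difference -0.20), while 23.0% of all 4899 genes of that level had a higher one (median -0.10). Quantile normalisation left 18 lower, with a median of -0.096. Of the 22 members over 10 FPKM, 6 had an unadjusted p under 0.05 at ZT6, against 14.3% of all genes of that level. Rab24, of autophagosomes, had 21.3, 22.3, 22.3 and 22.3 FPKM in controls and 17.6, 19.0, 19.4 and 18.0 in mutants, without overlap (log2 difference -0.24, SE 0.068, adjusted p = 0.471). Rab10 had 171, 177, 156 and 151 in controls and 145, 143, 113 and 121 in mutants, without overlap (log2 difference -0.33, SE 0.130, adjusted p = 0.471). Rab5b had 31.6, 34.4, 28.6 and 27.8 in controls and 27.0, 25.9, 25.5 and 24.5 in mutants (log2 difference -0.24, SE 0.096, adjusted p = 0.471). By compartment a lower mean was found in 11 of 14 early and recycling endosome Rabs and 5 of 7 of the late endosome group. It was found in 6 of 11 Golgi and ER, 2 of 7 secretory and GLUT4 and 2 of 4 other Rabs. These shares stand beside 57.5% lower over all genes and only 23.0% higher over all genes above 10 FPKM, and describe no compartment. In all, 9 members were lower without overlap (20.9%, against 8.73% of all genes): Rab24, Rab6a, Rab10, Rab5b, Rab28, Rab22a, Rab4a, Rab12 and Rab1b. Rab6a, picked out on its difference, is in this count and in that of the 6 lower members above. The 1 member higher without overlap was Rab43 (2.33%, against 3.39% of all genes), whose sequence is shared with another gene as given below.

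**Figure D3:**
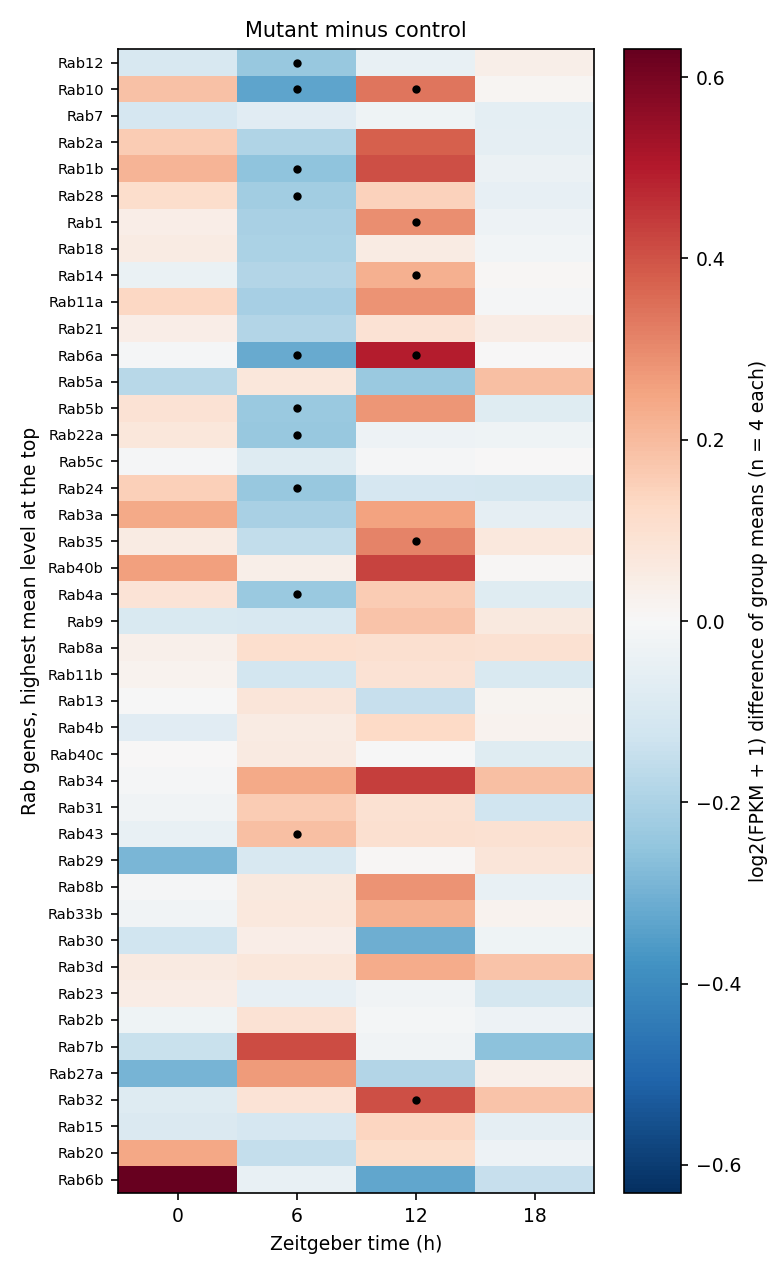
Mutant minus control log2(FPKM + 1) difference of group means (colour, n = 4 per group) for the 43 Rab genes at each Zeitgeber time, ordered by mean level with the highest at the top; a dot marks groups that do not overlap. Blue cells gather among the abundant genes at ZT6 and red cells at ZT12, and no dot falls at ZT0 or ZT18.

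At ZT0 no member passed the threshold (limma, 0.0167% of all genes called) and 2 members had an unadjusted p under 0.05 (4.65%, against 8.46%). Rab29, a lysosomal and Golgi Rab that recruits the kinase LRRK2, had 4.72, 4.65, 4.55 and 3.45 FPKM in controls and 3.56, 3.75, 3.17 and 2.99 in mutants (log2 difference -0.29, SE 0.088, adjusted p = 0.395). The other was Rab24 (log2 difference 0.15, SE 0.068, adjusted p = 0.576), with means of 19.6 in controls and 21.8 FPKM in mutants, the other way round from ZT6. Each was 2.33% of members, against 4.17% of all genes for higher and 4.29% for lower. A higher mean was found in 22 members (51.2%, against 47.5%) and a lower one in 21 (48.8%, against 52.5%). At ZT18 no member passed (limma, 0.0167% of all genes called) and none had an unadjusted p under 0.05 (2.88% of all genes, 0.952% higher and 1.93% lower). The smallest p was that of Rab24 (log2 difference -0.11, SE 0.068, unadjusted p = 0.113). A higher mean was found in 20 members (46.5%, against 44.3%) and a lower one in 23 (53.5%, against 55.7%). At neither time did any member have groups without overlap, against 1.16% of all genes higher and 1.45% lower at ZT0 and 0.843% and 1.66% at ZT18.

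A genotype difference that depends on time was tested directly. No member passed (limma, 0% of all genes called), and 11 members had an unadjusted p under 0.05 (25.6%, against 14.1% of all genes). They were Rab6a, Rab24, Rab5b, Rab10, Rab1, Rab2a, Rab11a, Rab1b, Rab14, Rab29 and Rab28, with adjusted p-values from 0.196 to 0.339. Across the members the log2 differences at ZT6 and ZT12 had a Pearson r of -0.27 over 43 genes, against 0.0041 over all 11975. In 19 members (44.2%, against 38.9% of all genes) the difference was lower at ZT6 and higher at ZT12. Members are not independent, since they share the libraries. Rab6a, picked out on its difference, is among the 11 and among the 19.

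Daily variation was tested as a 24 h cosine. In controls no member passed (limma, 5.55% of all genes called) and 6 had an unadjusted p under 0.05 (14%, against 19.4%). In mutants none passed (3.92% of all genes called) and 4 did so unadjusted (9.3%, against 14.4%). Over both genotypes 1 member of 43 passed, Rab40c (2.33%, against 11.4% of all genes), and 5 had an unadjusted p under 0.05 (11.6%, against 24%). Rab40c, another cullin ligase adaptor, varied with an amplitude of 0.13 on the log2 scale from mean to peak and a peak at ZT 4.61 (adjusted p = 0.0149). In controls it held 5.53, 5.45, 4.93 and 4.84 FPKM at ZT0, 4.78, 5.32, 5.30 and 4.96 at ZT6, 5.77, 4.81, 4.45 and 4.28 at ZT12, and 4.30, 4.81, 4.35 and 4.06 at ZT18. In mutants it held 5.09, 4.75, 6.64 and 4.49 at ZT0, 5.70, 5.06, 5.59 and 4.97 at ZT6, 5.41, 4.63, 4.41 and 4.76 at ZT12, and 3.73, 4.49, 4.31 and 3.90 at ZT18. The groups at ZT18 had the lowest mean in both genotypes, 4.38 and 4.11 FPKM. Leaving out 1 library kept the call, with adjusted p-values from 0.00593 to 0.0345. Summed endothelial markers reached their highest values at ZT0 in both genotypes (107 to 139 FPKM). In mutants they overlapped with ZT6 (up to 115 FPKM). The mean of the centred log2(FPKM + 1) values of that list had a Pearson r of 0.55 with Rab40c over 32 libraries. The part of these markers in the result was not tested.

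Rab30 varied with an amplitude of 0.16 (peak ZT 3.66, adjusted p = 0.0794) and Rab3d with 0.15 (peak ZT 0.625, adjusted p = 0.0971), so neither was called. Rab30 was highest at ZT6 in both genotypes, with means of 3.89 and 4.03 FPKM, and lowest at ZT12 in mutants (2.26). Its ZT6 groups overlapped with those of the other times. Rab27a, of secretory granules, had an amplitude of 0.24 and a peak at ZT 16.8 (adjusted p = 0.115), and rested on values from 0.584 to 3.59 FPKM. Rab7b, of late endosomes in immune cells, reached the lowest adjusted p among members in controls (0.0704, amplitude 0.34), with 1 control library at ZT18 at 1.01 FPKM and the other 3 at 2.84 to 3.63. The rhythm difference between genotypes had no called member (limma, 0% of all genes called; 3 unadjusted, 6.98% against 5.34%). The 12 h component had none either (0.0668% of all genes called), with 1 member, Rab30, at an unadjusted p under 0.05 (2.33%, against 14.1%; lower at ZT0 and ZT12 together than at ZT6 and ZT18, with 7.23% of all genes lower and 6.84% higher at that unadjusted p). Means by this component were higher in 23 members (53.5%, against 52.6%) and lower in 20 (46.5%, against 47.4%). The next smallest p was that of Rab33b, a Golgi Rab with a mean of 3.50 ± 0.514 FPKM over the 32 libraries (difference 0.11, SE 0.052, adjusted p = 0.355). ZT0 and ZT12 libraries carried one set of index sequences and ZT6 and ZT18 another, and which pool held which sample is not stated.

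**Figure D4:**
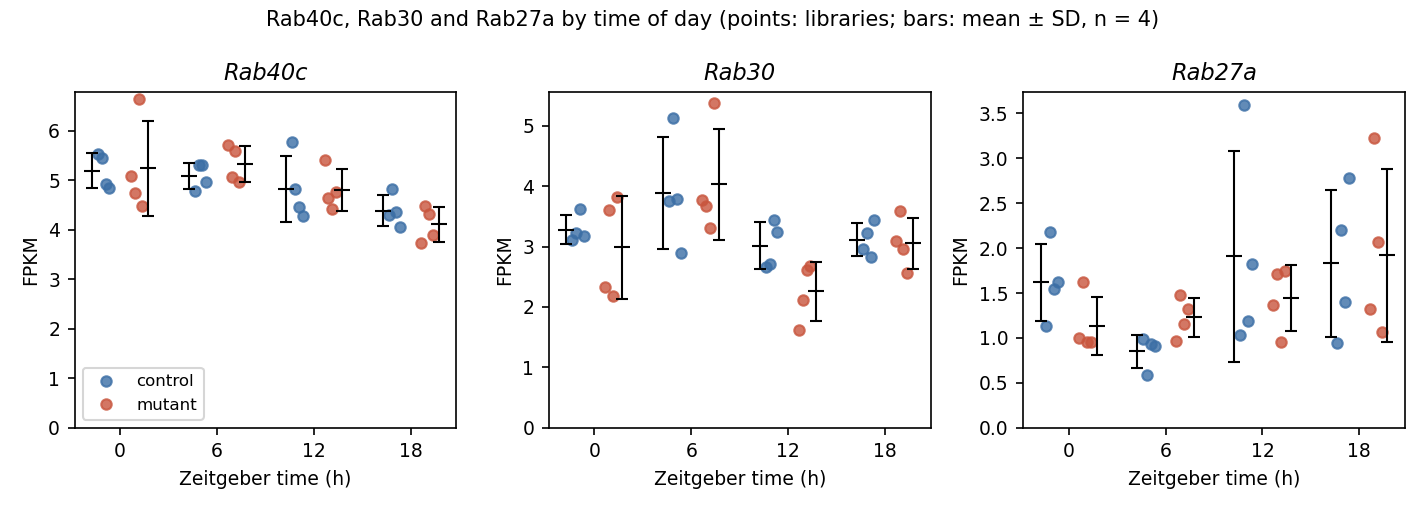
FPKM of Rab40c, Rab30 and Rab27a in each library (points) with mean ± SD (n = 4) by Zeitgeber time, controls in blue and mutants in red. Rab40c is lowest at ZT18 in both genotypes, and Rab27a varies between 0.584 and 3.59 FPKM.

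The genes most like Rab6a were ranked by Pearson r on log2(FPKM + 1) over the 32 libraries, as a description. Among the other 42 members the highest were Rab1 (0.88), Rab10 (0.88), Rab14 (0.88), Rab11a (0.84), Rab35 (0.75) and Rab5b (0.75). Within groups (after removal of the group means) these 6 kept r from 0.65 to 0.91. Over all genes the highest were Lypla1 (0.92), a palmitoyl thioesterase, Ap1s2 (0.92), a subunit of the adaptor AP-1 of Golgi and endosomes, Tmem30a (0.91), a subunit of lipid flippases, Dr1 (0.90), a transcription regulator, and Yaf2 (0.89). The median r of the other members was 0.27, against 0.11 over all genes. Among members over 10 FPKM it was 0.54 (11 of 21 above 0.5, or 52.4%), against 0.21 (22.6% above 0.5) over all genes of that level. Rab13 (-0.39), Rab5a (-0.34) and Rab30 (-0.31) were lowest. Among all pairs of members the median was 0.12, and the most negative pairs were Rab22a with Rab43 (-0.76) and Rab5a with Rab1b (-0.73).

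Rab6b, the relative of Rab6a known from neurons, fell into separated values. In 11 libraries (5 control, 6 mutant) it lay between 1.99 and 4.11 FPKM, and in 21 between 0.10 and 0.560. In controls it was 3.41, 0.344, 0.439 and 0.524 at ZT0, 0.191, 4.11, 2.99 and 0.199 at ZT6, 0.262, 2.09, 0.256 and 0.236 at ZT12 and 0.120, 0.277, 0.560 and 3.32 at ZT18. In mutants it was 2.71, 2.76, 3.43 and 0.212 at ZT0, 0.265, 3.34, 2.70 and 0.264 at ZT6, 0.232, 0.388, 0.102 and 0.300 at ZT12 and 0.276, 0.353, 0.242 and 1.99 at ZT18. Each group but mutant ZT12 held both kinds of values, so a group mean describes few of its libraries (the log2 difference at ZT0 was 0.63, with 3 high mutant libraries and 1 high control library). Rab6b is on chromosome 9, while of the 5 genes with the highest r to it over the 32 libraries 4 lie on chromosome 4: Agtrap (0.80), Fbxo44 (0.71), Gm13157 (0.63) and Mfn2 (0.62). Of the top 8 there were 6, against 6.17% of all tested genes on that chromosome. Why these genes vary together was not tested.

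**Figure D5:**
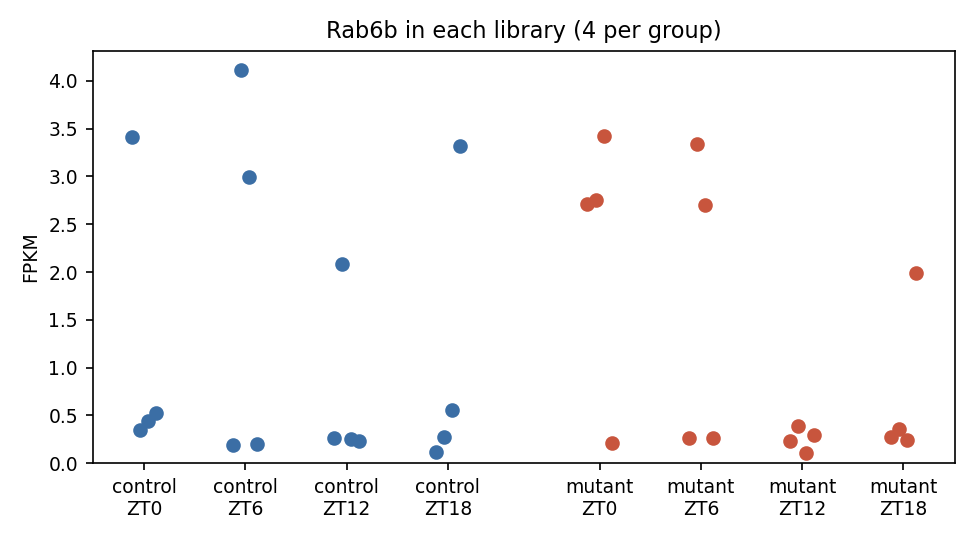
Rab6b in each of the 32 libraries (FPKM, 4 points per group). Values gather under 0.560 FPKM or above 1.99 FPKM, and mutant ZT12 has only low ones.

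Genes that act on Rab proteins were examined through lists. None of the 7 tested GDI, REP and prenylation genes, 31 GEFs, 31 GAPs, 13 Rab6 partners or 17 GLUT4 vesicle genes was called between genotypes at any time. At ZT12 the smallest p-values among GDI genes were those of Rabac1 (log2 difference 0.57, adjusted p = 0.155) and Gdi2 (0.29, adjusted p = 0.156). Gcc2, a Golgi tether bound by Rab6, had a log2 difference of -0.42 (adjusted p = 0.148), opposite in sign to Rab6a. Of the remaining lists the smallest were Rab3ip (0.34, adjusted p = 0.195) and Mon1a (0.41, adjusted p = 0.204) among GEFs, Tbc1d14 (0.21, adjusted p = 0.238) and Evi5l (0.31, adjusted p = 0.254) among GAPs, Rgp1 (0.17, adjusted p = 0.316) among Rab6 partners, and Exoc7 (-0.59, adjusted p = 0.269) and Myo5a (0.24, adjusted p = 0.311) among GLUT4 genes. In the 24 h rhythm over both genotypes (11.4% of all genes called) 4 of 31 GEFs, 4 of 31 GAPs, 3 of 13 Rab6 partners, 4 of 17 GLUT4 genes and 0 of 7 GDI genes were called. The lists overlap: Tbc1d1 and Tbc1d4 count among both GAPs and GLUT4 genes, and Ric1 among both GEFs and Rab6 partners. Tbc1d1, a GAP of GLUT4 vesicles, had the largest amplitude of these, 0.79, with a peak at ZT 23.4 (adjusted p = 6.97e-08). It was also called in each genotype alone, with an amplitude of 0.83 in controls (adjusted p = 4.16e-05) and 0.75 in mutants (adjusted p = 0.000124). Its mean fell from 35.5 FPKM at ZT0 to 10.6 at ZT12 in controls, and from 30.8 to 10.3 in mutants. Tbc1d4, its relative, peaked at ZT 12.2 (amplitude 0.14, adjusted p = 0.0397), and Slc2a4, which encodes GLUT4, at ZT 21.6 (amplitude 0.14, adjusted p = 0.0430). Ric1, part of a GEF for Rab6, had an amplitude of 0.17 and a peak at ZT 2.69 (adjusted p = 0.00213). Dennd2c, a GEF, had 0.35 and a peak at ZT 4.10 (adjusted p = 1.22e-05). The other called genes were the GEFs Rabgef1 and Rin2, the GAPs Tbc1d17 and Tbc1d5, Ocrl and Mical3 among Rab6 partners, and Ralgapb among GLUT4 genes.

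Bulk muscle cannot separate fewer cells of a type from less RNA per cell, and some members moved with markers of other cells. Here r was taken with the mean of the centred log2(FPKM + 1) values of a list, not with its summed FPKM. Rab32 had r = 0.74, Rab8b 0.72, Rab43 0.72 and Rab31 0.72 with the macrophage list over 32 libraries. Rab34 (0.77) and Rab3d (0.73) moved with the adipocyte list, and Rab4b (0.75) and Rab8a (0.70) with the lymphocyte list. With the fibre list 12 members were below -0.5 and 3 above 0.5. The share of all genes with such r is not given, so these counts cannot be read as a trait of the family. Among members with a higher mean in mutants at ZT12, Rab32 had r = -0.74 with it, Rab33b -0.67, Rab1b -0.64, Rab1 -0.56, Rab5b -0.55, Rab11a -0.52, Rab35 -0.45, Rab6a -0.44, Rab10 -0.43, Rab14 -0.40 and Rab2a -0.33. Not all with a higher mean had such values. With the fibre list Rab40b had -0.14, Rab18 0.08 and Rab21 0.16. Summed fibre markers were 72611, 53167, 104543 and 79819 FPKM in the 4 mutant ZT12 libraries and 115290, 90659, 95240 and 79254 in the controls of that time, and their part in the genotype difference at ZT12 was not tested. Without mutant ZT12 library 1, which had the lowest fibre sum, the members higher at an unadjusted p under 0.05 numbered 7 in place of 13. That count also moved with other ZT12 libraries: 9 without control library 0, 10 without mutant library 0 and 14 without mutant library 3. Of the 22 members over 10 FPKM 16 had a higher mean at ZT12, against 60.9% of all genes of that level. Without mutant ZT12 library 1, 19 of the 22 had one, and 34 of all 43 members.

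Near-identical transcripts make some values uncertain. Of the 43 members 31 were counted as sharing no 100-base stretch with another gene's transcripts in the GENCODE annotation, among them Rab6a, Rab6b and Rab40c. Rab1 was counted as sharing (0.423%, with Ang). Its symbol was matched by synonym and also took in a gene on chromosome 14, so that sharing may not belong to Rab1. In Rab43 73.8% of stretches were shared (with Gm45140) and in Rab4b 49.3% (with Gm21983), so reads could be divided between them. Rab7 (7.91%), Rab11b (7.11%) and Rab5b (6.14%) shared less.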

How the data were processed

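The authors deposited FPKM, 1 value per gene and library, and the genome build was mm10, per the submitters' processing notes. Libraries were made with a stranded mRNA protocol and read single-end for 100 cycles on 4 pools, each of 8 samples, per the labels' protocols. The aligner, quantifier and annotation are not given in the labels or headers read here. Columns were matched to the 8 groups by genotype (WT read as control, TG as mutant) and time, and their library numbers (0 to 3) identify no mouse, so the p-values measure the spread between these libraries.

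On log2(FPKM + 1), limma 3.58.1 (R 4.3.3) fitted 1 mean per group to the 11975 of 16634 genes with at least 1 FPKM in 4 libraries, with a trended prior (24 residual degrees of freedom, 3.37 from the prior) and Benjamini-Hochberg adjustment over all genes. A log2 difference on this scale understates changes of low genes. The model was tested on simulated data in which genes varied independently, unlike the members here, so that test does not cover genes that vary together. Amplitudes are log2 from mean to peak.

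Members, lists, motifs and tests were chosen with earlier results of these data known. Members named were Rab6a, the 5 most abundant, those called in any comparison and the 3 with the smallest p in each (16 in all, the ones checked for far values), and beyond these the 5 most like Rab6a and those under 2 FPKM. The values printed by library were picked among them after they were seen. Partner genes given were those called, or else the 2 with the smallest p. Alternatives were a pseudocount of 0.1, no filter, a mean of at least 5 FPKM, quantile normalisation, array weights, marker scores, only the groups compared, and each library left out. Promoters came from RefSeq, and proteins were not used here.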

Additional observations from a re-analysis of the deposited data

Results flagged for a closer look

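In each group of 4 libraries the highest or lowest value of 16 members (Rab6a, the most abundant, the called and those with the smallest p-values) was compared with the gap to its neighbour that Dixon's test allows. Of 128 groups 9 held a value beyond it, and chance flags about 1 in 20 groups. Rab6a at ZT6 in controls had 1 library at 40.1277 FPKM and the others at 34.8 to 35.1. Rab24 in controls at ZT6 had 1 at 21.2968 with the others at 22.25 to 22.30, and in mutants at ZT12 1 at 17.3359 with the others at 20.8 to 21.4. Rab29 had 1 control library at 3.45351 at ZT0 (others 4.55 to 4.72) and 1 at 4.75239 at ZT6 (others 3.98 to 4.08). Rab12 had 1 control library at 205.678 at ZT18, Rab1b 1 at 66.1094 at ZT12 and Rab33b 1 at 3.11372 at ZT6. Rab2a had 1 mutant library at 110.591 at ZT18, with the others at 88.9 to 91.5.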

How the results depend on the processing

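Of 422 counts of called Rab genes under alternatives, 401 stayed within 1.5 times the original and 21 did not. Of 1251 values of single genes, 1229 kept direction and side of the threshold and 22 passed it newly. Part of this was fixed in advance. Amplitudes and the size of a time-dependent difference are never negative, so they could not change direction. For a difference at 1 time, leaving out a library of another time changes only the p-value. Array weights called 2 members at ZT6 (Rab24, Rab6a), 1 by time (Rab6a), 2 in control rhythm (Rab6a, Rab7b), 2 in mutant rhythm (Rab40c, Rab6a) and 4 over both genotypes (Rab40c, Rab27a, Rab30, Rab7b). Marker scores called 1 in control rhythm (Rab3d) and 3 over both (Rab40c, Rab27a, Rab3d), and quantile normalisation 2 over both (Rab40c, Rab27a). A mean of at least 5 FPKM gave 0 over both, since Rab40c is then not tested. Leaving out 1 library gave 0 to 4 at ZT12 (4 without mutant ZT12 library 3: Rab1b, Rab2a, Rab5b, Rab6a; Rab6a also without mutant ZT0 library 2 or 3), 0 to 2 by time (Rab6a and Rab10 without mutant ZT0 library 3, Rab6a without library 2), 0 to 1 in control rhythm (Rab29 without control ZT0 library 3, Rab7b without control ZT18 library 0), 0 to 2 in mutant rhythm (Rab40c and Rab6a without mutant ZT0 library 2) and 1 to 3 over both (Rab40c in each; with Rab27a and Rab7b without control ZT18 library 0, Rab30 without control ZT6 library 3 or mutant ZT0 library 2, and Rab3d without mutant ZT0 library 0). The cause was not tested. For these counts, and for those under alternatives at ZT6 and ZT12 above, the share of all genes is not given. They therefore cannot be read as a trait of the members. With 1 library left out, Rab6a at ZT12 kept a log2 difference of 0.48 to 0.53, with limma adjusted p-values from 0.00792 to 0.303. Absolute depth is unknown, which limits the members under 2 FPKM most. No paired analysis was possible because the library numbers of the columns name no mouse, litter or day.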
